A study of Mus musculus with 11 samples.

Results

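The genes of the vascular endothelial growth factor (VEGF) ligands and receptors were followed in sorted retinal endothelial cells of mice with oxygen-induced retinopathy (OIR). They were chosen by name and comprise 9 of the 55359 genes counted in each sample, with 3 receptor kinases (Kdr, Flt1, Flt4), 2 co-receptors (Nrp1, Nrp2) and 4 ligands (Vegfa, Vegfb, Vegfc, Pgf). Each symbol matched 1 Ensembl gene. All mice were C57BL/6 pups by the labels (C57BL/6J in the methods) in the OIR model, in which exposure to high oxygen closes retinal capillaries and the later return to room air leaves a hypoxic retina into which pathological vessels grow. At P12, 5 mice were injected intravitreally with 0.5 µL of oncostatin M (OSM), a cytokine of the interleukin-6 family, at 100 ng/µL, and 6 mice with 0.5 µL PBS. Both retinas of 1 mouse were pooled at P17, and live CD31+/CD45- cells were sorted for RNA sequencing, so each sample is 1 mouse. Contralateral eyes served as PBS controls according to the methods, which do not say whether both eyes of a sequenced mouse were treated alike, and the labels give 1 treatment per mouse. The mice came from 3 litters, each in 1 OIR run. Litter 1 held OSM-treated mice 1 and 2 and PBS-treated mice 3 and 4, litter 2 OSM-treated mice 5 and 6 and PBS-treated mice 7 and 8, and litter 3 OSM-treated mouse 9 and PBS-treated mice 10 and 11.

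In the retina, VEGF-A is made mainly by glia and neurons under low oxygen and acts on endothelial cells, where VEGFR2, encoded by Kdr, carries most of the signal for growth, migration and permeability. VEGFR1, encoded by Flt1, binds VEGF-A, VEGF-B and placental growth factor tightly but signals weakly, and a soluble splice form acts as a decoy. VEGFR3, encoded by Flt4, is the receptor of VEGF-C and marks lymphatic vessels as well as sprouting blood vessels, and the neuropilins present VEGF to the kinases and also bind class 3 semaphorins. Counts per gene do not separate splice forms, so membrane-bound and soluble Flt1, and the splice forms of Vegfa, were measured together.

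The reads counted on genes numbered 26697990 to 56033479 per mouse, with 28471487 to 56033479 in OSM-treated and 26697990 to 35151928 in PBS-treated samples. All 10 endothelial markers (among them Pecam1, Cdh5, Tek and Cldn5) had reads in every mouse, and their summed level was 11758 to 14198 CPM (counts scaled to library size) in OSM-treated and 11533 to 14348 CPM in PBS-treated samples. Markers of other cells were lower but present. The summed levels of 10 mural cell markers were 410.3 to 836 CPM in OSM-treated and 309.8 to 1745 CPM in PBS-treated samples, those of 10 Müller glia markers 459 to 913 CPM and 369 to 696 CPM, and those of 10 rod markers 202 to 5409 CPM and 395 to 1508 CPM. The Müller glia sum came mostly from Apoe and Glul, and 4 of these 10 glial markers had reads in every mouse. Astrocyte markers summed to at most 6.91 CPM, leukocyte and microglia markers to at most 10.2 CPM and lymphatic endothelial markers to at most 9.16 CPM. In such bulk samples, fewer cells of a type and less RNA per cell cannot be told apart.

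Of the members, Kdr (ENSMUSG00000062960, chr5:76093487-76139884 of GRCm39, minus strand) and Flt1 (ENSMUSG00000029648, chr5:147498414-147662826, minus strand) lie on the same chromosome, each with 30 exons in its canonical transcript. Flt4 (ENSMUSG00000020357) lies on chr11:49500090-49543582, also with 30 exons. Nrp1 (ENSMUSG00000025810, chr8:129085085-129231082) and Nrp2 (ENSMUSG00000025969, chr1:62742444-62857854) have 17 exons each. The ligands have 7 exons each: Vegfa (ENSMUSG00000023951, chr17:46327919-46343309), Vegfb (ENSMUSG00000024962, chr19:6958447-6965127), Vegfc (ENSMUSG00000031520, chr8:54530257-54640131) and Pgf (ENSMUSG00000004791, chr12:85213409-85224564). Nrp2 shares 3.18% of its exon bases with an antisense gene, and since the library does not mark strand, reads from that stretch cannot be told apart. Kdr and Flt1 had the highest levels of the members and did not overlap between litter 1 and the other litters (below). Their promoters are shown as the 250 bases before the canonical start, from chr5:76139119-76139368 for Kdr and chr5:147662822-147663071 for Flt1. Both are read 5′ to 3′ on the minus strand, and capitals mark GGAA or its reverse complement TTCC, the core bound by ETS factors such as ERG.

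Kdr: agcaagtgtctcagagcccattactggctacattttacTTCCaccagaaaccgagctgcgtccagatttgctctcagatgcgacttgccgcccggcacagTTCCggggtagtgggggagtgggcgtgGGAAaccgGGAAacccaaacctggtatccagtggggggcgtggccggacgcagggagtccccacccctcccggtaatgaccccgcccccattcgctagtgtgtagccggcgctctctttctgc

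Flt1: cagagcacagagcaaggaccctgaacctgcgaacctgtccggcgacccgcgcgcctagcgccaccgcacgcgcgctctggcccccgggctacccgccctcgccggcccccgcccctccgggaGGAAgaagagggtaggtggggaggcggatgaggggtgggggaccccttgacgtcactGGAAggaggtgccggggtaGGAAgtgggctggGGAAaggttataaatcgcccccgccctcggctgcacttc

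Each of these windows held 4 matches to GGAA on either strand. This motif is common, since 93.9% of 21770 promoters of this length held at least 1 match, with a median of 3. The TATA box letters TATAAA, searched on both strands, occurred once in Flt1 and not in Kdr, and 11.9% of all promoters held them. The letters ACGTG, 1 form of the core of the hypoxia response element, occurred in neither window, and 17% of all promoters held them. The other form, GCGTG, was not searched, but it can be read in both printed windows, in Flt1 as its reverse complement CACGC. A match is a description of these letters and not evidence of a bound site. For Flt4, the GENCODE and RefSeq starts gave windows with no shared run longer than 8 bases, so its promoter is not shown.

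Levels of different genes were compared as TPM, which divides the counts by exon length and scales the sum to be equal in every library. The endothelial receptors were high, and the ligands and Nrp2 were lower. Kdr, the main signaling receptor, had 971 ± 237 TPM (SD, n = 11 mice) and ranked 110 of 28728 genes with reads. Flt1, its weakly signaling relative, had 499 ± 101 TPM (SD, n = 11) and was below Kdr in 11 of 11 mice. Nrp1, the co-receptor of arteries and of VEGFR2 complexes, had 146 ± 25.9 TPM (SD, n = 11), and its range did not overlap that of Flt1. Flt4 followed with 91.1 ± 28.4 TPM (SD, n = 11) and was below Nrp1 in 11 of 11 mice, although the ranges overlapped.

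Among the ligands, Vegfc, which binds VEGFR3, was the highest with 64 ± 12 TPM (SD, n = 11). It was below Flt4 in 9 of 11 mice. Pgf, the ligand of VEGFR1 alone among the kinases, had 44.1 ± 33.7 TPM, and Nrp2, the co-receptor of veins and lymphatics, 36.1 ± 6.33 TPM (SD, n = 11 each). Vegfc exceeded Pgf in 8 mice and Pgf exceeded Nrp2 in 5 of 11, so these neighbours did not differ beyond their spread. Vegfb, another ligand of VEGFR1, had 8.96 ± 4.09 TPM and Vegfa, the ligand of VEGFR1 and VEGFR2, had 5.28 ± 6.73 TPM (SD, n = 11 each). Both were below the Nrp2 range in every mouse but overlapped with one another. The 5 receptors and co-receptors made up 90.8% to 94.9% of the summed TPM of the members (median 93.3%). With the length of the longest transcript in place of all exons, the order was kept except that Nrp2 (44.6 TPM) came before Pgf (44.1 TPM), and Nrp1, with many annotated transcripts, rose to 305 TPM.

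**Figure D1:**
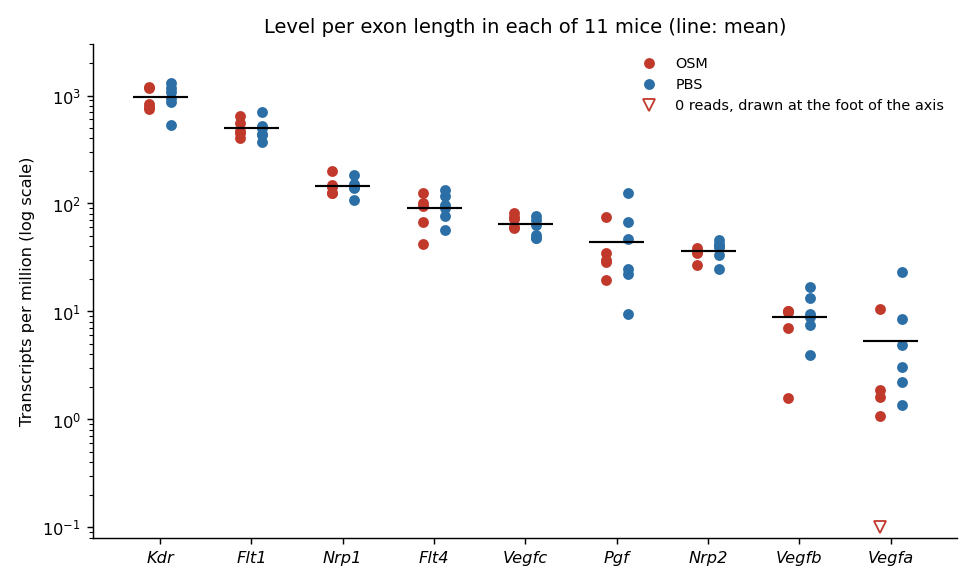
Level per exon length in TPM (log axis) of each member in each of the 11 mice, red for OSM-treated and blue for PBS-treated samples, with a line at the mean. Kdr and Flt1 lie above all other members, and the open triangle at the foot of the axis marks OSM-treated mouse 9, in which Vegfa had 0 reads.

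Within each gene, values are given as normalized counts, which TMM factors bring to the mean depth of the libraries. For Kdr, the OSM-treated mice 1, 2, 5, 6 and 9 had 81864, 80709, 55780, 57141 and 61601 normalized counts, and the 6 PBS-treated mice had 39392 to 87238 with a median of 71470. High values fell in litter 1 of both treatments. In its 4 mice, Kdr had 80709 to 87238 normalized counts, and the highest value in the other litters was 74944. Flt1 was likewise at 57090, 64885, 51553, 48680 and 44450 normalized counts in OSM-treated mice 1, 2, 5, 6 and 9, and at 41015 to 70140 (median 48825) in PBS-treated mice. Its lowest value in litter 1, 53940 normalized counts, was above the highest of the other litters, 52437. PBS-treated mouse 7 had the lowest level of both receptors.

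Flt4 had 6225, 7721, 2799, 4412 and 6241 normalized counts in OSM-treated mice 1, 2, 5, 6 and 9, and 3775 to 8231 (median 5971) in PBS-treated mice. OSM-treated mouse 5 was the lowest, and litter 1 was high with 6225 to 8231, although its lowest mouse was just under the highest of the other litters (6241). For Nrp1, the values were 16913, 22482, 15270, 15129 and 17505 normalized counts in OSM-treated mice 1, 2, 5, 6 and 9, against 13029 to 20277 (median 16516) in PBS-treated mice. Nrp1 spread little, and OSM-treated mouse 2 was the highest. Nrp2 was at 3120, 3433, 3461, 2555 and 3538 normalized counts in OSM-treated mice 1, 2, 5, 6 and 9, against 2365 to 4061 (median 3650) in PBS-treated mice. Both groups overlapped for all 5 receptors.

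The ligand Vegfc was as even as the receptors. It had 1734, 1514, 1390, 1712 and 1366 normalized counts in OSM-treated mice 1, 2, 5, 6 and 9, and 993 to 1648 (median 1261) in PBS-treated mice. The highest Vegfc value exceeded the lowest 1.75-fold, close to the 1.71- to 2.94-fold range of the receptors. Pgf, which is induced in activated endothelium, varied 12.5-fold between mice. Its values were 768, 627, 1772, 456 and 711 normalized counts in OSM-treated mice 1, 2, 5, 6 and 9, and 214 to 2684 (median 825) in PBS-treated mice. PBS-treated mice 4 and 8, the highest and the lowest, came from different litters but had the same treatment.

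Vegfb had 244, 241, 182, 263 and 41 normalized counts in OSM-treated mice 1, 2, 5, 6 and 9, and 94 to 417 (median 237) in PBS-treated mice. The low value of OSM-treated mouse 9 stood apart from the other OSM-treated mice. Vegfa was at 60, 337, 56, 37 and 0 normalized counts in OSM-treated mice 1, 2, 5, 6 and 9, and at 43 to 740 (median 133) in PBS-treated mice. OSM-treated mouse 9 had 0 of its 56033479 reads on Vegfa, although it was the deepest library, and 3 reads would have been 1.83 normalized counts, whereas the lowest of the other mice had 36.9. The genes with at least 1 mouse without a read made up 33.1% of the 17050 genes tested, and Vegfa was the only one of the 9 members. PBS-treated mouse 11 had the highest Vegfa level, 740 normalized counts, and also the highest sum of mural cell markers (1745 CPM), while its Müller glia markers (696 CPM) were below those of OSM-treated mouse 2 (913 CPM), which had 337 normalized counts. In OSM-treated mouse 9, mural cell markers summed to 433 CPM and Müller glia markers to 509.7 CPM. The mural sum did not follow Vegfa in every mouse. It was 410.3 CPM in OSM-treated mouse 2, and 1139 CPM in PBS-treated mouse 7, which had 104 normalized counts of Vegfa. Most of the Müller glia sum was Apoe and Glul, and the glial markers with fewer reads did not all follow Vegfa. Rlbp1, the retinaldehyde-binding protein of Müller glia, had 0 normalized counts in OSM-treated mouse 9 and its highest values, 1229 and 1642, in OSM-treated mouse 2 and PBS-treated mouse 11. Dkk3 had 0 and Clu 4.26 normalized counts in OSM-treated mouse 9, and Dkk3 had 2353 and Clu 1945 in OSM-treated mouse 2. Rlbp1 also had 0 in OSM-treated mouse 6, which had the lowest Vegfa level of the mice with reads. In that mouse, however, Dkk3 had 476 and Clu 866 normalized counts. Other markers of this list also went another way. Sox9 had 683 and Crym 183 normalized counts in OSM-treated mouse 9, and Kcnj10 had 0 in OSM-treated mouse 2 and PBS-treated mouse 11. The part of these cells in the Vegfa counts was not tested.

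**Figure D2:**
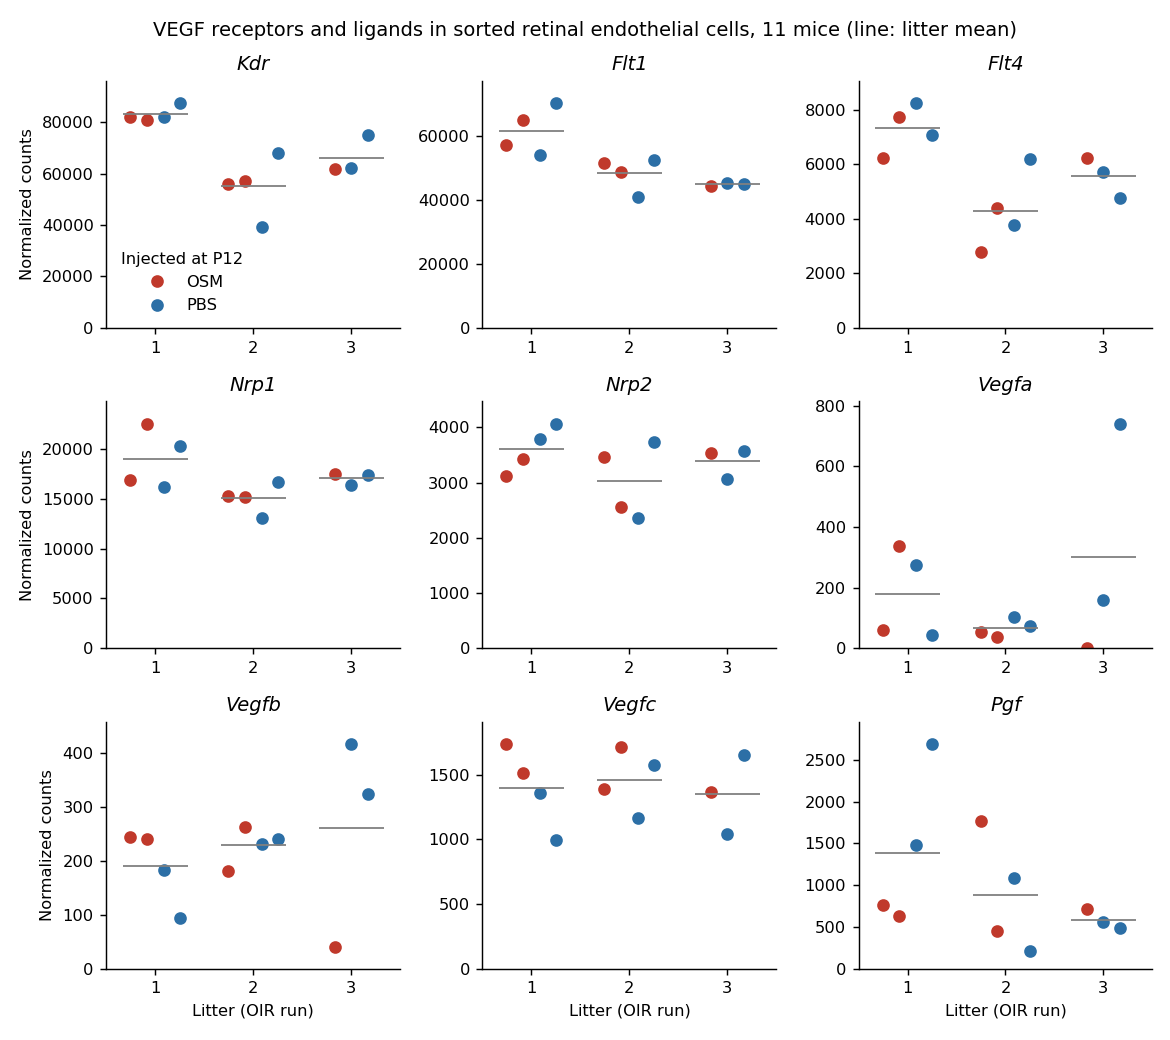
Normalized counts of each member (vertical axis, from 0) by litter (horizontal axis), with 1 point per mouse, red for OSM-treated and blue for PBS-treated samples, and a line at the litter mean. Litter 1 is above the other litters for Kdr and Flt1, and Vegfa, Vegfb and Pgf vary most between the 11 mice.

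The spread between mice, as the SD of log2 CPM, was smaller for the receptors and Vegfc than for the other ligands. It was 0.34 for Kdr, 0.24 for Flt1, 0.47 for Flt4, 0.21 for Nrp1, 0.24 for Nrp2 and 0.28 for Vegfc, all under the median of 0.71 over the 17050 genes tested. The SD was 0.90 for Vegfb, 1.02 for Pgf and 2.23 for Vegfa. Genes with low counts spread more in general, and Vegfa had the lowest counts of the members.

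**Figure D3:**
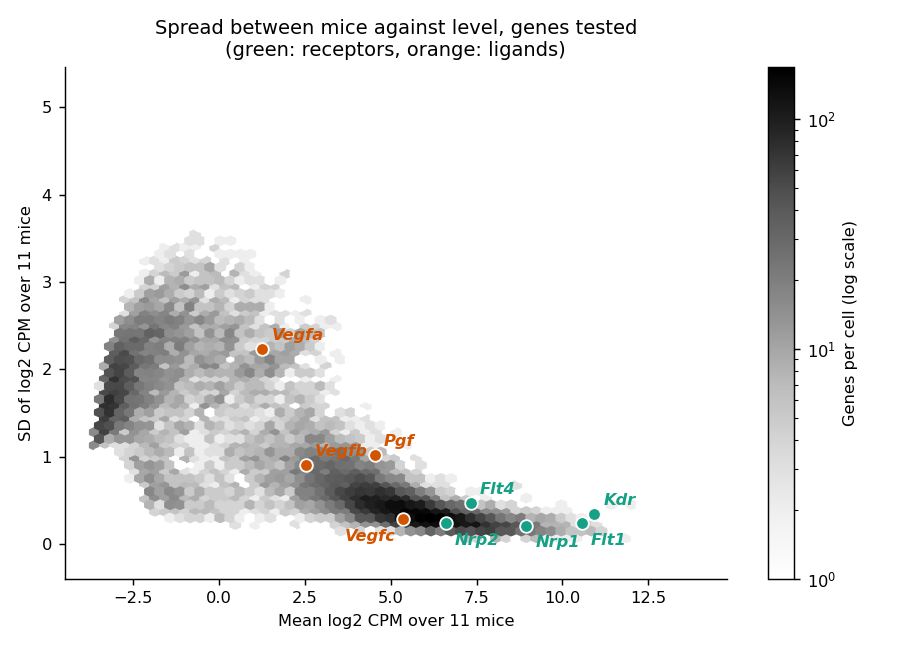
SD of log2 CPM over the 11 mice against mean log2 CPM, with the genes tested as grey cells (darker for more genes, log scale) and the members in color. Receptors (green) lie at high level and small spread, whereas Vegfa (orange) has the smallest mean and the largest SD of the members, 2.23.

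The comparison of OSM- with PBS-treated samples asked whether a single injection at P12 left a difference in the VEGF system of the endothelial cells at P17. With litter as a term in edgeR's quasi-likelihood fit, 0 of the 9 members passed an adjusted p of 0.05, as did 0 of the 17050 genes tested (0%). By DESeq2 with litter, 168 of the 28940 genes with at least 1 read passed (0.581%), 0 of them members. This wider base includes the genes with few reads that edgeR's filter drops, and a gene without an adjusted p in DESeq2 counts as not passing. An unadjusted p under 0.05 occurred for 0 members and for 846 genes (4.96%), and the adjusted p of each member was 1 by edgeR. Both groups overlapped for all 9 members, and 0.405% of all genes tested did not overlap. The log2 fold change was above 0 for 3 members and below 0 for 6, with a median of -0.08, beside 48.4% above and 51.6% below 0 of all genes tested, with a median of -0.014.

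For the receptors with high counts the intervals were narrow. Kdr had 67419 ± 12848 normalized counts in OSM-treated (SD, n = 5) and 68952 ± 17102 in PBS-treated samples (SD, n = 6), which gave a log2 fold change of -0.03 ± 0.12 (SE) with a 95% interval of the fold from 0.811 to 1.18. Flt1 had 53331 ± 7926 against 51297 ± 10443 normalized counts, with a log2 fold change of 0.02 ± 0.09 (SE) and a fold between 0.887 and 1.16. At this precision, larger differences than these bounds in Kdr or Flt1 would lie outside the 95% interval, whereas smaller ones could not be resolved. The log2 fold changes of Nrp1 (0.07 ± 0.10), Nrp2 (-0.08 ± 0.14) and Flt4 (-0.16 ± 0.18, SE) were also smaller than the spread between mice. Nrp1 was higher in OSM-treated samples within each litter, by 0.11, 0.04 and 0.06 on the log2 scale, the narrowest range over litters among the receptors, although the fitted value was 0.00 without OSM-treated mouse 2.

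Within litters, the receptors other than Nrp1 showed no shared direction. From litter 1 to litter 3, the log2 differences of Kdr were -0.06, 0.13 and -0.15. For Flt1 it was -0.02, 0.11 and -0.02, and for Flt4 -0.14, -0.46 and 0.26. Nrp2, which also binds class 3 semaphorins, differed by -0.26, 0.00 and 0.10.

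Of the ligands, Vegfc was at 1543 ± 174 normalized counts in OSM-treated and 1297 ± 275 in PBS-treated samples, so that OSM differed from PBS by a log2 fold change of 0.25 ± 0.18 (SE, edgeR unadjusted p = 0.206, adjusted p = 1), and was higher after OSM in each litter by 0.48, 0.19 and 0.06. Only Nrp1 and Vegfc of the members had the same sign in all 3 litters, and 23% of all genes tested did. Pgf (867 ± 520 against 1085 ± 906 normalized counts) differed by -1.52 in litter 1, 0.89 in litter 2 and 0.45 in litter 3. Vegfb (194 ± 90.7 against 249 ± 112) differed by 0.88, -0.11 and -3.13.

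Vegfa had 97.8 ± 136 normalized counts in OSM-treated (SD, n = 5) and 233 ± 262 in PBS-treated samples (SD, n = 6). Its log2 fold change was -1.08 ± 1.41 (SE), with a 95% interval from -4.19 to 2.03, so that neither a rise nor a fall could be resolved. The value was -0.31 without OSM-treated mouse 9. Within litters, Vegfa differed by 0.39 in litter 1 and by -0.94 in litter 2. In litter 3, the OSM-treated mouse had no read. With 3 reads taken as the floor of that library, it was 247-fold lower than the mean of both PBS-treated mice, 451 normalized counts. Against PBS-treated mouse 10 alone, with 161 normalized counts, it was 88.3-fold lower. This floor covers the sampling of reads only, and PCR copies of a molecule cannot be recognized in these libraries. These folds are therefore no lower bounds on the difference in RNA.

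**Figure D4:**
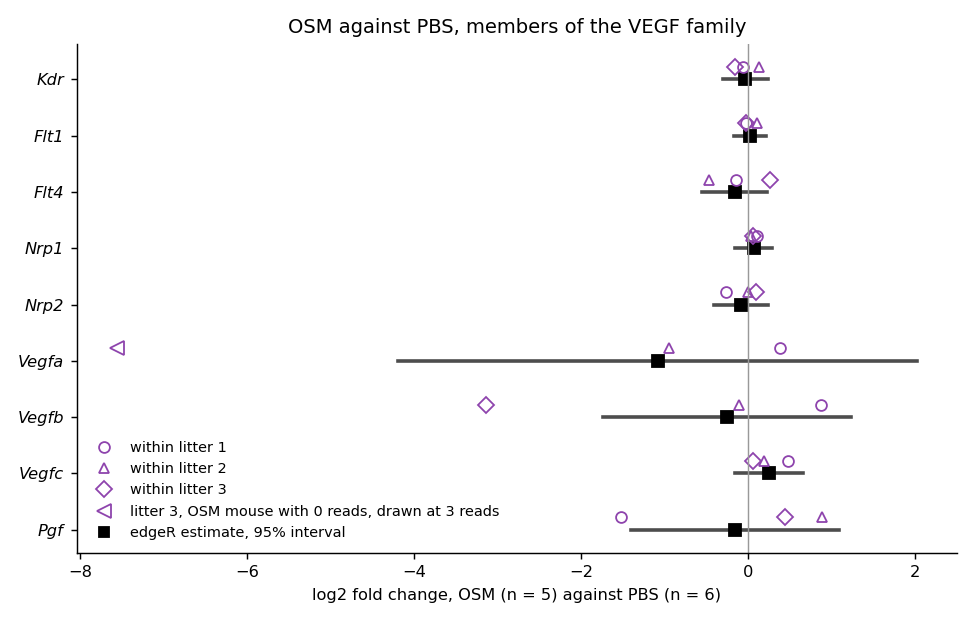
Log2 fold change of OSM- (n = 5) against PBS-treated samples (n = 6) for each member, with the edgeR estimate (square), its 95% interval (bar) and the differences within each litter (open symbols, the arrowhead for Vegfa in litter 3 being drawn at 3 reads for the mouse with 0). All 9 intervals include 0, and they are narrow for receptors and wide for Vegfa, Vegfb and Pgf.

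In the fit with an interaction, the OSM difference itself was compared between litters. No member passed by edgeR after adjustment. In edgeR's fit, the unadjusted p was 0.00974 for Vegfa (adjusted p = 0.587) and 0.0342 for Vegfb (adjusted p = 0.74). These were 2 of the members, and 6.42% of all genes tested had an unadjusted p under 0.05. A likelihood ratio test in DESeq2 gave adjusted p = 0.00927 for Vegfa and 0.000579 for Vegfb, and called 2.33% of 28940 genes. Litter 3 holds only 1 OSM-treated mouse, mouse 9, with the lowest value of both genes, so that litter and this mouse cannot be told apart.

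At equal treatment, the fitted differences of the receptor kinases between litters exceeded those between treatments. For Kdr, litter 2 was 0.59 and litter 3 was 0.33 lower than litter 1 on the log2 scale (edgeR, unadjusted p = 0.00525, adjusted p = 0.218). The differences to litter 1 were -0.35 and -0.45 for Flt1 (edgeR, unadjusted p = 0.00372, adjusted p = 0.197) and -0.78 and -0.41 for Flt4 (edgeR, unadjusted p = 0.0111, adjusted p = 0.292). With Nrp1, whose differences were -0.33 and -0.14, 4 of 9 members had an unadjusted p under 0.05, beside 10.3% of all genes tested. After adjustment edgeR called 0 of 9 members and 0.0176% of all genes. The call depended on the test: DESeq2's likelihood ratio test gave adjusted p = 0.0229 for Kdr, 0.0121 for Flt1 and 0.0435 for Flt4, and edgeR without a filter on low counts gave adjusted p = 2.85e-05, 0.0125 and 0.00138. These tests called 3.41% and 2.16% of 28940 genes. Kdr and Flt1, singled out after their values were seen, did not overlap between litter 1 and the others, and 1.52% of all genes tested were higher in litter 1 without overlap.

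Some other endothelial genes also had a low unadjusted p between litters. Of 10 endothelial markers, 3 had an unadjusted edgeR p under 0.05, beside 10.3% of all genes tested, and 0 were called. Pecam1, which encodes CD31, was 0.57 and 0.37 lower in litters 2 and 3 than in litter 1 (edgeR, unadjusted p = 0.000202, adjusted p = 0.0783), and the guidance receptor Robo4 0.44 and 0.43 lower (edgeR, unadjusted p = 0.00894, adjusted p = 0.264). Among the VEGF-responsive genes, 15 of 33 had an unadjusted litter p under 0.05 by edgeR, and among the hypoxia-responsive genes 7 of 16, beside 10.3% of all genes tested. The sum of the endothelial markers, in which Cldn5 is the largest, was 12550 to 14198 CPM in litter 1 and 11533 to 14348 CPM in the other litters. Müller glia markers, mostly Apoe and Glul, summed to 619 to 913 CPM in litter 1 and 369 to 696 CPM in the others. The erythrocyte markers, hemoglobin genes among them, summed to 136 to 415 CPM and 117 to 1128 CPM. The part of other cells in the litter differences was not tested. Each litter is also 1 OIR run, and these cannot be told apart. Ptprb, which encodes the phosphatase VE-PTP of endothelial junctions and dampens VEGFR2, was 0.88 and 0.95 lower in litters 2 and 3 (edgeR, unadjusted p = 0.000295, adjusted p = 0.0861). For the ligands, the differences of litters 2 and 3 to litter 1 were 0.07 and 0.01 for Vegfc, 0.23 and 0.30 for Vegfb, -0.59 and -1.22 for Pgf and -1.63 and 0.06 for Vegfa, each with an unadjusted edgeR p over 0.05.

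Ratios of members in the same library do not depend on how libraries are scaled, and 3 were tested. Flt1 to Kdr, the decoy to the signaling receptor, was 0.405 to 0.701 per exon length (median 0.519). The log2 ratio of reads was -0.33 ± 0.17 in OSM-treated (SD, n = 5) and -0.40 ± 0.27 in PBS-treated samples (SD, n = 6), a difference of 0.04 with litter as a term (two-sided exact permutation test over all exchanges of mice within litters, p = 0.741, adjusted over 3 ratios 0.741). Nrp2 to Nrp1 was -2.43 ± 0.22 against -2.29 ± 0.14, a difference of -0.14 (exact permutation p = 0.259, adjusted p = 0.388). Vegfa to Vegfb was -2.63 ± 2.78 against -0.60 ± 1.18, a difference of -2.25 (exact permutation p = 0.0741, adjusted p = 0.222), and -0.66 without OSM-treated mouse 9. The size depends on the 0.5 added to each count, and with 10 added the difference was -1.16 (exact permutation p = 0.167, adjusted p = 0.375). The smallest p that these splits allow is 0.00926, and none of the 3 ratios passed.

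Genes around the receptors were read from 5 lists of the pathway, and edgeR called 0 genes of any list between OSM- and PBS-treated samples, with 0% called over all genes. Of the 34 VEGF-responsive endothelial genes, 33 were tested, 8 with a log2 fold change above and 25 with one below 0 and a list median of -0.11. Over all genes tested, 48.4% were above and 51.6% below 0, with a median of -0.014. Of the 33 genes, 2, both lower, had an unadjusted p under 0.05, beside 2.71% of all genes tested. Plvap, the diaphragm protein of fenestrated and leaky vessels, had 3045 ± 872 against 5265 ± 1974 normalized counts, a log2 fold change of -0.85 ± 0.31 (SE, edgeR unadjusted p = 0.0205, adjusted p = 0.955) with a lower level after OSM in each litter. Cxcr4, a chemokine receptor of tip cells, had 677 ± 131 against 1040 ± 301 (log2 fold change -0.61 ± 0.23, edgeR unadjusted p = 0.0249, adjusted p = 0.955). Esm1, a tip cell proteoglycan, had 635 ± 315 against 1454 ± 941 (-1.21 ± 0.56, edgeR unadjusted p = 0.0561, adjusted p = 0.955). Without the filter on low counts, edgeR gave adjusted p = 0.000285 for Plvap and 0.0224 for Esm1, whereas Cxcr4 was not called, and 0.225% of 28940 genes were. Of 22 alternatives, this was the only 1 that called Plvap or Esm1. DESeq2 with litter gave adjusted p = 0.276 for Plvap and 0.465 for Esm1, and DESeq2 without litter 0.404 and 0.53. Without OSM-treated mouse 9, the log2 fold change was -0.56 for Plvap and -0.85 for Esm1. Unlike Plvap, Cxcr4 was higher after OSM in litter 3 (0.18) and Esm1 in litter 2 (0.12).

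Other genes that VEGF induces had wide or small differences. Apln, the tip cell ligand apelin, differed by -0.28 ± 0.16, and Angpt2, the Tie2 ligand that destabilizes vessels, by -0.45 ± 0.29 on the log2 scale (SE). The OSM difference of both was most negative in litter 1, with -1.22 for Angpt2 and -0.79 for Apln. In litter 2, both were higher after OSM, by 0.51 and 0.13. In litter 3, both differences were again below 0, with -0.70 for Angpt2 and -0.11 for Apln. Dll4, the Notch ligand of tip cells, was level with -0.02 ± 0.13, although the sign of this value was not stable.

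Of the 34 tested signal transducers downstream of the receptors, 14 were higher and 20 lower with a median of -0.06, and 0 had an unadjusted p under 0.05. The 3 with the lowest p were Pik3r1, the regulatory subunit of PI3-kinase (1.07 ± 0.49), the adaptor Shc1 (-0.25 ± 0.13) and the small GTPase Rac1 (0.10 ± 0.07, log2 fold change ± SE). Pik3r1 differed by 1.21 and 2.05 in litters 1 and 2 but by -1.32 in litter 3. Plcg1, which binds the activated VEGFR2, differed by -0.29 ± 0.19 and Nos3, the endothelial nitric oxide synthase, by -0.06 ± 0.14.

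The 28 receptor partners and brakes had a median of -0.07, with 9 higher and 19 lower. Cdh5, the junction protein VE-cadherin, differed by 0.04 ± 0.08 and Ptprb by -0.10 ± 0.15 on the log2 scale (SE). The ubiquitin ligase Cbl, which marks VEGFR2 for breakdown, differed by -0.90 ± 0.45, and Dab2, an endocytosis adaptor of VEGFR2 and VEGFR3, by 0.33 ± 0.17. Ptpn6, the phosphatase SHP-1 of blood cells, was the only gene of this list under the unadjusted threshold of 0.05. Its p by edgeR was 0.0112 before and 0.955 after adjustment. Its adjusted p by DESeq2 was 0.969 with litter and 8.36e-12 without, a fit that called 0.304% of 28940 genes. Ptpn6 had reads in 3 of 11 mice, all PBS-treated. Vegfd, another ligand of VEGFR3, had reads in 4 of 11 mice.

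The neuropilins also bind class 3 semaphorins, and these and their plexins numbered 12, of which 5 were higher and 7 lower, with a median of -0.09. Sema3e, the ligand of plexin D1, had an unadjusted edgeR p of 0.0486 (adjusted p = 0.955) but reads in only 6 of 11 mice. Plxnd1 differed by -0.10 ± 0.10 and Plxna1 by -0.34 ± 0.25 (log2 fold change ± SE). Of 16 hypoxia-responsive genes, 11 were higher and 5 lower with a median of 0.07. Ero1a, an oxidase of the endoplasmic reticulum, had 1517 ± 517 normalized counts in OSM-treated and 1067 ± 324 in PBS-treated samples (log2 fold change 0.59 ± 0.23, edgeR unadjusted p = 0.0252, adjusted p = 0.955), beside 2.25% of all genes tested that were higher at this unadjusted threshold. Ankrd37 differed by 0.32 ± 0.17, and Car9, a carbonic anhydrase, had reads in 6 of 11 mice. Beside these lists, 5 of 5 erythrocyte markers were higher in OSM-treated samples with an unadjusted edgeR p under 0.05 (median log2 fold change 1.12), and 9 of 10 mural cell markers were lower with a median of -0.68, 1 of them under this threshold. Of 10 markers of proliferating cells, 8 were lower with a median of -0.31, and 2 of these were under this threshold. The endothelial markers had a median of -0.01, and the part of other cells in these values was not tested. Over all genes tested, 2.25% were higher and 2.71% lower at the unadjusted threshold. Without a threshold, 48.4% were above and 51.6% below 0. After adjustment, edgeR called 0 of the erythrocyte, mural cell and proliferating cell markers.

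**Figure D5:**
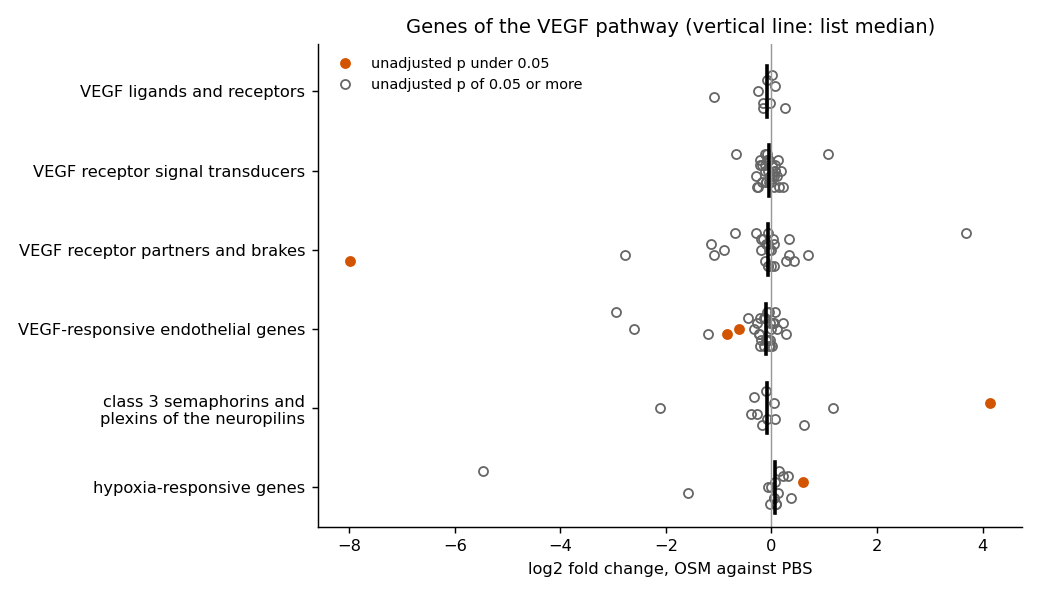
Log2 fold change of OSM- against PBS-treated samples for each tested gene of the VEGF family and of the 5 pathway lists, with a vertical line at the list median and filled points for an unadjusted edgeR p under 0.05. The list medians lie between -0.11 and 0.07, and the points beyond 2 on either side are genes without reads in some mice, such as Ptpn6, whose fitted value is no measure of size because all OSM-treated samples had 0 reads.

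The genes most like a member across the 11 mice, by Pearson's r of log2 CPM among 8931 well-counted genes (8932 for Vegfa), differed between members. They share the libraries, litters and scaling, and with so many genes some high values arise in any such search. For Kdr these were Dock9 (r = 0.969), Lama4 (0.956) and Ankrd13a (0.952), where Lama4, a laminin chain of vessel walls, is also in the list of VEGF-responsive genes. For Flt1 they were Cers5 (0.946), Sppl3 (0.941) and Csnk1d (0.937), and for Flt4 Tspan9 (0.943), Dyrk1b (0.935) and Sema4c (0.930). Nrp1 was closest to Cwc22 (0.892), Eci2 (0.892) and Sap30l (0.887), and Nrp2 to Sh2d3c (0.929), Ctdspl2 (0.907) and Tpst1 (0.899). For the ligand Pgf, Pawr (0.874), Lpgat1 (0.839) and Cnksr3 (0.838) came first, and for Vegfa, Ano8 (0.913), Rhobtb2 (0.911) and Rassf4 (0.897).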

How the data were processed

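RNA of sorted cells from 11 mice was reverse-transcribed from poly(A) tails and amplified by PCR. The authors aligned single reads to GRCm39 with STAR, and the deposited values are raw read counts per Ensembl gene from featureCounts, without normalization. Of 55359 genes, 54749 were in the annotation used here (GENCODE vM39), which gave symbols, positions and exon lengths, and 610 were not and were kept without symbols. The count columns of the last 2 PBS-treated mice carry numbers 1 higher than their sample labels, which were used. Sequences came from GRCm39. Because PCR copies of a molecule cannot be recognized in these libraries, precision was judged by the spread between mice. No sample was a copy of another, since the chi-square per gene with at least 20 reads was 67.6 or more for each pair.

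Counts were compared with edgeR 4.0.16 in R 4.3.3 (TMM, filterByExpr with a minimum count of 10, robust quasi-likelihood fit, litter and treatment as terms, Benjamini-Hochberg adjustment over 17050 genes, threshold 0.05). Litter is given by the series design and came from 3 OIR runs. Standard errors were derived from the fold change and the F statistic. Log2 CPM used a prior count of 2, ratios an added count of 0.5, and TPM the union of exons. Alternatives were no litter term, other scaling, other filters, no robust estimation, thinning to the smallest library, DESeq2 1.42.0 and leaving out each mouse or litter. The tests were run on simulated counts of this design, with large treatment changes planted only in well-counted genes of small spread. No litter difference was simulated. This check therefore does not cover genes of wide spread such as Vegfa, or how well differences between litters are found. The members and lists were chosen with earlier results of these data known. Genes named beside the members were the 3 of each pathway list with the lowest unadjusted p, 9 by name, and the 3 most alike to 7 members among genes with a mean log2 CPM of at least 3.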

Additional observations from a re-analysis of the deposited data

Results flagged for a closer look

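For Vegfb, OSM-treated mouse 9 lay far from the other OSM-treated mice, with a log2 CPM of 0.35 where the nearest was at 2.43. The gap was 0.798 of the range of the group, and this was 1 of 18 groups tested, of which chance gives about 1 in 20. The OSM difference of Vegfb was 0.88 in litter 1, where both OSM-treated mice were above both PBS-treated mice, and -3.13 in litter 3, where the OSM-treated mouse was below both (edgeR interaction over 3 litters, unadjusted p = 0.0342, adjusted p = 0.74). For Pgf, both OSM-treated mice of litter 1 were below both PBS-treated mice (-1.52), and the OSM-treated mouse of litter 3 was above both (0.45, edgeR interaction, unadjusted p = 0.127, adjusted p = 0.791). The difference between litters 1 and 3 alone was not tested, and litter 3 holds 1 OSM-treated mouse.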

How the results depend on the processing

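Between OSM and PBS, 0 members were called under any of 22 alternatives. Of all genes, edgeR called 0, and 0 without any 1 mouse (0 to 0), but 65 without a filter on low counts, and DESeq2 called 168 with and 88 without litter. Between litters, edgeR called 3 genes, 0 to 44 without 1 mouse (0 without mouse 1, 2, 3, 4, 5, 9 or 11, 1 without mouse 10, 7 without mouse 6, 8 without mouse 7 and 44 without mouse 8), 625 without a filter, 109 with at least 10 counts in every mouse and 15 after thinning, and DESeq2 called 988. For the interaction these counts were 0, 305 without a filter and 673 by DESeq2. The causes were not tested. With the longest transcript, levels moved to 704 TPM (Flt1), 305 (Nrp1), 44.6 (Nrp2) and 45.7 (Vegfc). Signs of small log2 fold changes turned: without a litter term, in DESeq2 without litter and without litter 3, Dll4 gave 0.03, 0.02 and 0.05 and Ptprb 0.01, 0.00 and 0.03. Without litter 1, Nrp2 gave 0.03, Pgf 0.64, Apln 0.04, Angpt2 0.04 and Cdh5 -0.08, without litter 2 Flt1 -0.03, Flt4 0.02, Plcg1 0.04 and Nos3 0.17, and without litter 3 Kdr 0.00 and Vegfb 0.35. Leaving out 1 mouse each gave -0.15 to 0.07 for Kdr, -0.04 to 0.09 for Flt1, 0.00 to 0.13 for Nrp1, -0.17 to 0.01 for Nrp2, -0.61 to 0.35 for Vegfb (0.35 without OSM-treated mouse 9), -0.66 to 0.14 for Pgf, -2.01 to -0.31 for Vegfa, -0.12 to 0.06 for Dll4, -0.13 to 0.07 for Nos3 and -0.22 to 0.03 for Ptprb. For litter 2 against litter 1 it gave -0.10 to 0.42 for Vegfb and -0.05 to 0.15 for Vegfc, and for the log2 ratio of Flt1 to Kdr -0.01 to 0.11. The filter of 10 counts in every mouse drops Vegfa. No paired analysis was possible because the groups share no mouse numbers, and litter was the block. Vegfa, Ptpn6, Sema3e, Vegfd and Car9 had mice without reads, and their differences were not resolved beside the spread between mice.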
